A study of Mus musculus with 2 samples.

Results

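The heat shock proteins and DnaJ co-chaperones of the developing mouse limb were taken as all protein-coding genes whose symbol is Hspd1, Hspe1 or Hsph1, or is Hspa, Hspb, Hsp90, Dnaja, Dnajb or Dnajc with a number, where only Hspa and Hsp90 symbols may end in letters. By this rule 69 of the 21474 protein-coding genes in the tables were members. They comprised 10 genes of the HSP70 family, 3 of the related HSP110 family, 3 of the HSP90 family, 8 small heat shock proteins, the 2 subunits of the mitochondrial chaperonin, and 43 DnaJ genes (4 Dnaja, 13 Dnajb and 26 Dnajc). The rule used names only and no measured value.

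The RNA came from limbs of C57BL/6J embryos at 14.5 days, with neither a mutation nor a treatment named in the labels, and all samples formed 1 group. Male and female siblings were pooled for each of the 2 libraries, which the labels call biological replicates 1 and 2. Only polyadenylated RNA longer than 200 nucleotides was read, as paired ends on a strand-specific protocol. Neither the litters behind the pools nor the limbs taken are named in the labels, so the spread and p-values below measure these 2 samples and may be partly technical. With 1 group there were no conditions to compare. Levels are given as TPM, an abundance that the authors' tables already correct for transcript length and sequencing depth, so genes can be set against each other. In bulk tissue, fewer cells that use a gene and less of its RNA per cell cannot be told apart.

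HSP70 proteins hold unfolded stretches of other proteins in a cycle driven by ATP. A DnaJ protein brings the client and starts the ATP hydrolysis, and an exchange factor such as an HSP110 ends the cycle. HSP90 proteins finish the folding of chosen clients, among them kinases and steroid receptors, small heat shock proteins hold aggregating proteins, and the mitochondrial chaperonin encloses a client in a chamber. Cytosol, endoplasmic reticulum and mitochondria each have their own HSP70 and DnaJ members. Heat and unfolded protein raise some of them through heat shock factors in the cytosol and through the unfolded protein response in the endoplasmic reticulum, while others are made in every cell at all times.

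The promoters below are shown because they carry the DNA letters known for those stress responses in 4 members whose levels are described further on. The sequences are those of RefSeq on GRCm38.p6, each 300 bases from 250 before the annotated start to 50 from it onward, 5′ to 3′ on the strand of the gene. Capitals mark a match on either strand. In Hspa5 (chr2:34771840-34772139, plus strand) and Hsp90b1 (chr10:86705395-86705694, minus strand), the HSP70 and HSP90 of the endoplasmic reticulum, capitals mark the endoplasmic reticulum stress element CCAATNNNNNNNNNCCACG. In Hspe1 (chr1:55087898-55088197, plus strand) and Hspd1 (chr1:55087883-55088182, minus strand), the subunits of the chaperonin, they mark a heat shock element of 3 units, TTCNNGAANNTTC.
Hspa5: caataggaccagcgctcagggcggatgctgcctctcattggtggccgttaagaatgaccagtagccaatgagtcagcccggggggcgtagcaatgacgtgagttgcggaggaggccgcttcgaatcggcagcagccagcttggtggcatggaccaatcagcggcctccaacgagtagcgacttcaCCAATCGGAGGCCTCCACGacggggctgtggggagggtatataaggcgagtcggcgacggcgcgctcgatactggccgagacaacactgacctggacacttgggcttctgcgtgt
Hsp90b1: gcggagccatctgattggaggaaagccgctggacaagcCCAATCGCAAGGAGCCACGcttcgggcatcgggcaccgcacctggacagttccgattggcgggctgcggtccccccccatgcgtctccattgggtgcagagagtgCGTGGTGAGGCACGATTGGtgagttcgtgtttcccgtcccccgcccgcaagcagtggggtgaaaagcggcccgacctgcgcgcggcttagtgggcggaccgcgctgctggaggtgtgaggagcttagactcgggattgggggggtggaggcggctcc
Hspe1: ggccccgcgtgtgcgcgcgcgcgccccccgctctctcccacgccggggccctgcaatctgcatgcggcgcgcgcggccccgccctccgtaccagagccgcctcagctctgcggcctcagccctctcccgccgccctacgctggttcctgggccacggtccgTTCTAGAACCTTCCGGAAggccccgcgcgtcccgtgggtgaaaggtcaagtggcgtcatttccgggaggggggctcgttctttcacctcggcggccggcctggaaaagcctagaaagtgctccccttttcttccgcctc
Hspd1: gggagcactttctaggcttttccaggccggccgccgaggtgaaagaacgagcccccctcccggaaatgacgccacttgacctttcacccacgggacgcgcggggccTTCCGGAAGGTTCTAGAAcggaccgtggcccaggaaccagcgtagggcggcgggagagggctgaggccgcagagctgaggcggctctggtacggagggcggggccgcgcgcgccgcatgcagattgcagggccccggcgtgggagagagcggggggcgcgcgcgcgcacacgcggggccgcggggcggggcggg
Hspd1 and Hspe1 are transcribed away from each other, and their windows share 285 of their 300 bases, so the capitals in both are the same DNA read from opposite strands. Each holds overlapping matches, at -89 to -77 and -84 to -72 from the start of Hspe1, and at -144 to -132 and -139 to -127 from that of Hspd1. In Hspa5 the match lay at -65 to -47. In Hsp90b1 matches lay at -212 to -194 and, on the opposite strand, at -107 to -89.

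A promoter window was found by symbol for 56 of the 69 members. The heat shock element was present in 4 of these 56, namely Hspd1, Hspe1, Dnajb6 and Hsph1, against 179 of all 27025 genes with a window (0.662%). The match of Hspd1 and that of Hspe1 are the same DNA, so these 4 are not all separate sites. In Hsph1 the match lay after the annotated start, and in Dnajb6 before it. The endoplasmic reticulum stress element was present in 3 of the 56, namely Hspa5, Hsp90b1 and Dnajc3, against 37 of 27025 genes (0.137%). A match is a description of letters and not evidence of binding in these limbs, and the remaining windows simply lack these exact letters.

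Transcripts of the family were abundant. At least 1 TPM in both libraries was reached by 62 of 69 members (89.9%), against 62.8% of all protein-coding genes. At least 10 TPM in both was reached by 49 members (71.0%), against 41.7% of all protein-coding genes, and at least 100 TPM in both by 8 members (11.6%), against 5.81%. The median of the members' mean levels was 21.0 TPM, beside 5.84 TPM for all protein-coding genes. Together the members summed to 6411 TPM in replicate 1 and 5929 TPM in replicate 2. In counts they took 0.7673% of the 110172148 gene counts in replicate 1 (95% Wilson interval 0.7657 to 0.7689%) and 0.5941% of the 103363136 in replicate 2 (0.5926 to 0.5956%), where intervals cover counting error only. The 5 highest members, Hspa8, Hsp90ab1, Hspa5, Hspb1 and Hsp90b1, held 66.3% ± 3.08 of the family's TPM (SD, n = 2).

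**Figure D1:**
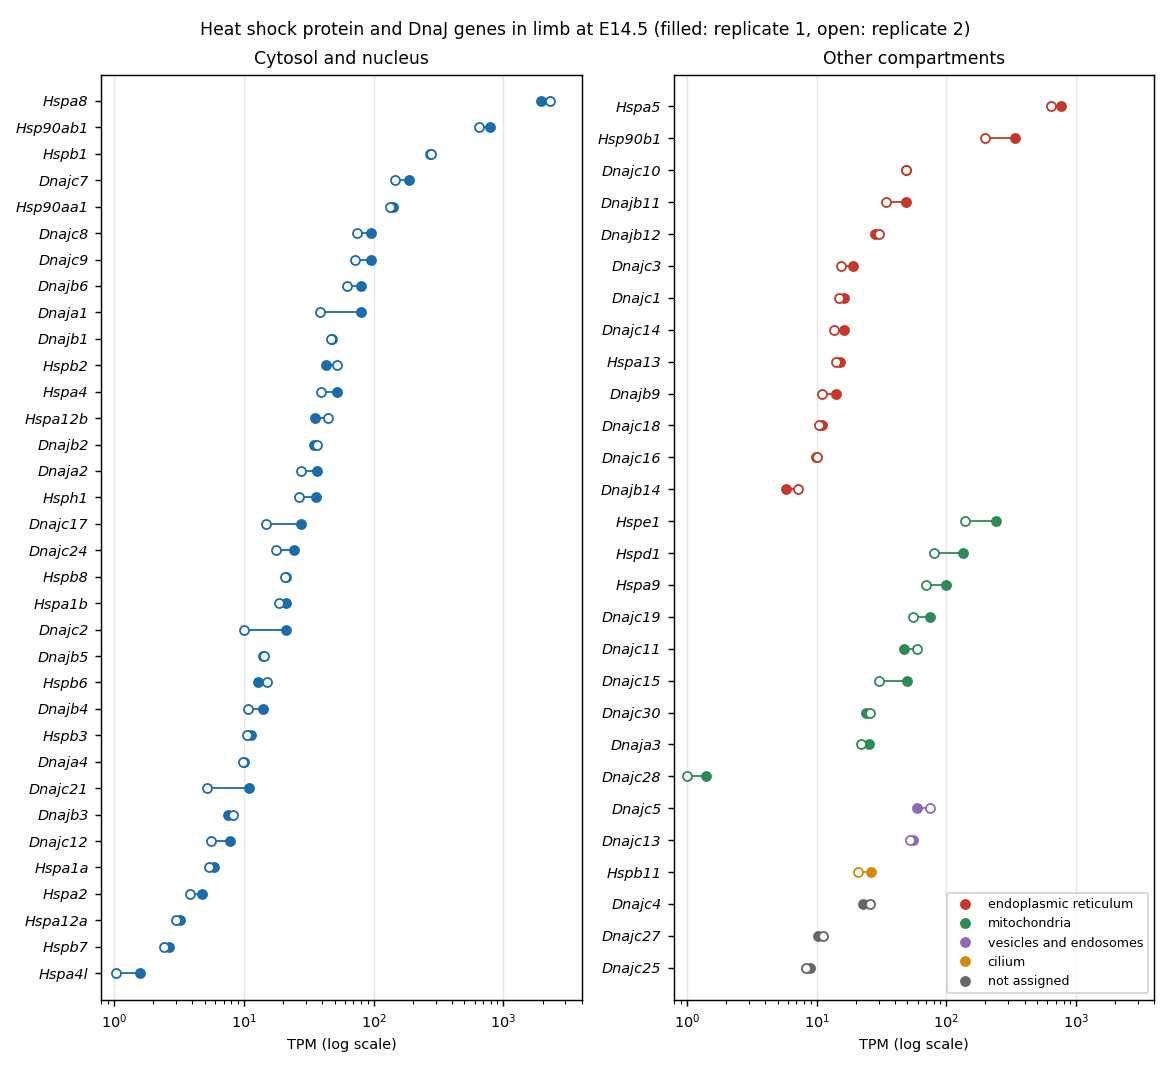
TPM on a log scale of the 62 members with at least 1 TPM in both libraries, by compartment, with filled points for replicate 1, open points for replicate 2 and a line joining them. Hspa8 stands highest at 1953 and 2303 TPM, and the widest gaps between libraries are those of Dnaja1, Dnajc2 and Dnajc21.

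By compartment, the cytosol and nucleus held 39 members, 34 of them detected, meaning at least 1 TPM in both libraries. Their summed level was 4203 TPM in each library and made up 68.2% ± 3.76 of the family's TPM (SD, n = 2). The equal sums do not mean equal members, since 27 were lower in replicate 2 and 8 were higher. Among the higher was Hspa8, at 1953 and 2303 TPM, although its coding transcripts had 1198 and 746 TPM. All 13 members of the endoplasmic reticulum were detected, at a sum of 1328 and 1047 TPM in replicates 1 and 2 and a share of 19.2% ± 2.16. All 9 mitochondrial members were detected as well, at 696 and 483 TPM and 9.50% ± 1.91. The rest were small: 3 members on vesicles and endosomes with 1.98% ± 0.256, Hspb11 of the cilium with 0.380% ± 0.0407, and 4 members given no compartment with 0.725% ± 0.0870. By family the HSP70 genes made up 48.8% ± 5.00 of the TPM, the HSP90 genes 18.1% ± 2.32 and the 26 Dnajc genes 14.2% ± 0.823. The HSP70 share was 45.2% in replicate 1 and 52.3% in replicate 2, and it counts transcripts without a coding frame. Coding transcripts made up only 61.4% and 32.4% of the TPM of Hspa8, and 40.5% and 35.1% of that of Hspa5. Family shares were not taken from coding transcripts alone. The shares also lean on a few genes whose reads are shared with other loci: without the 13 members that had counts off whole numbers, cytosol and nucleus stood at 48.4%, the endoplasmic reticulum at 31.3%, mitochondria at 14.1%, vesicles and endosomes at 4.20%, the cilium at 0.797% and the members given no compartment at 1.24%. In expected counts vesicles and endosomes held 3.82% and the cilium 0.0955%. The 13 were Hspa8, Hspa1a, Hspa1b, Hspa1l, Hsp90aa1, Hsp90b1, Hspb1, Hspd1, Dnaja1, Dnajb6, Dnajc9, Dnajc19 and Dnajc25, and their levels are less certain than those of the other 56. An exon of 26 members overlapped that of another gene, on the opposite strand in 24, and the sources used here do not say whether the counting used the strand.

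Among the cytosolic HSP70s the constitutive gene was far above the inducible ones. Hspa8 (ENSMUSG00000015656.12, chromosome 9, 40800984 to 40810087), which encodes the HSP70 made at all times, had 1953 and 2303 TPM in replicates 1 and 2 and stood above 99.8% of protein-coding genes. Its inducible relatives on chromosome 17, Hspa1b and Hspa1a, which are near-identical copies of each other, had 21.3 and 18.6 TPM, and 5.88 and 5.36 TPM. Because Hspa1a and Hspa1b share reads, their sum of 25.6 ± 2.26 TPM (SD, n = 2) is the firmer value. The mean level of Hspa8 was 107-fold that of Hspa1b, a log2 difference of 6.67 on the log2(TPM + 1) scale (95% interval 6.09 to 7.25, limma with Benjamini-Hochberg adjustment over 27 pairs of genes, adjusted p = 5.02e-06). This pair used Hspa1b alone and not the sum, against which the gap is smaller. Hspa2, a form best known from male germ cells, had 4.80 and 3.82 TPM and lay 494-fold below Hspa8 (limma, adjusted p = 2.98e-06). Both libraries gave the same order with gaps many times the spread between them.

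The level of Hspa8 depended on which of its transcripts is read. Its full-length coding transcript Hspa8-201 was given 1197 TPM in replicate 1 and 743 in replicate 2, whereas Hspa8-209, a short transcript annotated without a coding frame, was given 471 and 1282 TPM. Coding transcripts thus made up 61.4% and 32.4% of the gene's TPM, but 87.0% and 67.2% of its counts, since the short form has an effective length of 528 and 501 nucleotides against 2195 and 2168 for Hspa8-201. The counts of Hspa8 were 226648 and 167803, lower in replicate 2, while its gene TPM was higher there. From coding transcripts alone Hspa8 was above Hspa1b by 5.50 on the log2 scale (limma, adjusted p = 9.49e-07) and above Hspa2 by 7.48, against 8.65 at gene level (limma, adjusted p = 3.94e-07).

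The other HSP70-like genes of the cytosol spanned a wide range. Hspa12b, a divergent form known from endothelium, had 35.7 and 44.9 TPM, of which 30.0 and 30.8 TPM were coding. Its paralogue Hspa12a had 3.23 and 2.98 TPM, a 13.0-fold gap (limma, adjusted p = 1.51e-05). The log2 difference was 3.32, and 2.94 with coding transcripts alone (limma, adjusted p = 2.21e-06). Hspa1l, known from testis, had 0.380 and 0.350 TPM. In the HSP110 family, which resets HSP70 by exchanging its nucleotide, Hspa4 had 52.1 and 39.1 TPM and Hsph1 36.1 and 26.7 TPM. This pair did not pass the threshold, with a log2 difference of 0.53 (95% interval -0.02 to 1.07, limma, adjusted p = 0.0586), although Hspa4 was higher in both libraries. It passed with a filter at 5 TPM (limma, adjusted p = 0.0480) and in CPM, counts scaled by depth and a TMM factor (limma, adjusted p = 0.00473). CPM are not scaled by length, and the effective length was 4189 and 4222 nucleotides for Hspa4 against 3595 and 3576 for Hsph1. The pair also passed in a paired fit on the differences within each library, which were 0.52 and 0.53 in replicates 1 and 2 (limma, adjusted p = 0.0215). Hspa4l was 34.9-fold below Hspa4, at 1.58 and 1.03 TPM (limma, adjusted p = 1.08e-05).

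Among the cytosolic HSP90s the constitutive form was again the higher. Hsp90ab1 (ENSMUSG00000023944.10, chromosome 17, 45567775 to 45573271), the constitutive form, had 791 and 644 TPM. Hsp90aa1, the form raised further by heat, had 141 and 134 TPM, although part of its reads was shared with other loci. Hsp90ab1 was 5.22-fold higher, by 2.37 on the log2 scale (95% interval 1.79 to 2.95, limma, adjusted p = 0.000199). Hsp90aa1 was chosen for its transcripts after its values were seen: Hsp90aa1-202 held 94.4% of the gene's TPM in replicate 1 and 57.7% in replicate 2. Hsp90aa1-208, a short coding transcript, was listed at 0 TPM in replicate 1 and at 50.6 TPM, or 37.7% of the gene, in replicate 2.

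Small heat shock proteins were led by a single gene. Hspb1 (HSP25), which binds unfolding proteins and actin filaments, had 272 and 277 TPM, nearly the same in both libraries. Hspb2 and Hspb3, partners in muscle, had 42.8 and 52.1 TPM, and 11.5 and 10.6 TPM, a 4.31-fold gap (limma, adjusted p = 0.000157). Hspb8, which works with Bag3 in clearing aggregates, had 21.0 TPM in each library, and Hspb6, known from smooth and striated muscle, 12.8 and 15.2 TPM. Hspb1 was 13.1-fold above Hspb8 (limma, adjusted p = 1.37e-05) and 19.6-fold above Hspb6 (limma, adjusted p = 1.08e-05). Hspb7, known from the heart, had 2.67 and 2.43 TPM and lay 18.6-fold below Hspb2 (limma, adjusted p = 1.08e-05). Hspb9, known from testis, had 0.0300 TPM in each library. An exon of Hspb2 overlaps one of Cryab, a crystallin and small heat shock protein named outside the rule, by 252 bases on the opposite strand. Cryab had 45.9 and 42.3 TPM.

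Among the cytosolic and nuclear DnaJ genes Dnajc7 had the highest gene TPM. Dnajc7, which links HSP70 with HSP90, had 187 and 146 TPM, but its coding transcripts made up only 27.8% and 20.8% of that, or 51.8 and 30.3 TPM. Dnajc8, a spliceosome partner, had 95.1 and 74.8 TPM, and Dnajc9, a chaperone of histones H3 and H4, had 95.3 and 72.0 TPM. Dnajb6, known for holding back aggregates of polyglutamine, had 80.2 and 62.0 TPM. All 4 were higher in replicate 1, as were most members.

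The general HSP70 partners of the DNAJA and DNAJB classes were detected too. Dnaja1 had 79.9 and 38.6 TPM, of which 59.5 and 23.5 TPM were coding, Dnaja2 36.5 and 27.6 TPM, and Dnaja4 9.99 and 9.85 TPM. Dnaja1 was above Dnaja2 by 0.79 on the log2 scale (95% interval 0.04 to 1.54, limma, adjusted p = 0.0456) and 5.98-fold above Dnaja4 (limma, adjusted p = 0.000485). The first of these calls was lost with coding transcripts alone, where the difference was 0.23 (limma, adjusted p = 0.510). Dnajb1, the classic heat-inducible partner of HSP70, had 48.1 and 46.9 TPM, all of it coding, and was 3.81-fold above its paralogue Dnajb4, at 14.1 and 10.9 TPM (limma, adjusted p = 0.000224). Dnajb2, known for passing clients to the proteasome in neurons, had 34.8 and 36.6 TPM, and Dnajb6 was 1.99-fold above it (limma, adjusted p = 0.00503). Dnajb5, a further paralogue of Dnajb1, had 14.1 and 14.3 TPM.

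Several Dnajc genes of cytosol and nucleus serve ribosomes, splicing or enzymes. Dnajc17, found with the spliceosome, had 27.5 and 14.8 TPM, of which 14.8 and 8.76 TPM were coding. Dnajc24, which helps make diphthamide on elongation factor eEF2, had 24.3 and 17.7 TPM, of which 12.8 and 7.13 TPM were coding. Dnajc2, the ribosome-bound DnaJ protein, had 21.1 and 10.1 TPM, and Dnajc21, which helps recycle factors of the large ribosomal subunit, had 11.0 and 5.18 TPM. Dnajc12, a partner of aromatic amino acid hydroxylases, averaged 6.70 TPM. Dnajb3, described in mouse testis, averaged 7.93 TPM. Dnajb13, Dnajb7 and Dnajb8, which are known from sperm or testis, were at most at 0.0800 TPM, and Dnajb8 had no counts at all, where 3 counts, the limit that a count of 0 allows, would be 0.0272 CPM in replicate 1 and 0.0290 CPM in replicate 2. The testis markers Tnp1 and Prm1 were at 0 in both libraries.

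In the endoplasmic reticulum the HSP70 and HSP90 stood far above their DnaJ partners. Hspa5 (BiP, ENSMUSG00000026864.9, chromosome 2, 34771970 to 34777547), which guards every protein that enters the organelle, had 760 and 638 TPM. Hsp90b1 (GRP94, chromosome 10, 86690209 to 86705509), which folds integrins and Toll-like receptors, had 335 and 199 TPM. These are the genes with the endoplasmic reticulum stress element printed above. At gene level Hsp90b1 was 2.61-fold below Hspa5 (log2 difference -1.42, 95% interval -2.14 to -0.71, limma, adjusted p = 0.00437), and 2.68-fold below its cytosolic relative Hsp90ab1 (limma, adjusted p = 0.00424). Hspa5 was 3.05-fold below Hspa8 (limma, adjusted p = 0.00193).

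The gap between Hspa5 and Hsp90b1 depended on a short transcript of Hspa5. Hspa5-204, annotated as a target of nonsense-mediated decay with an effective length of 278 and 251 nucleotides, took 442 and 403 TPM, while the coding transcript Hspa5-202 took 304 and 215 TPM. In counts the order was reversed, with 14.1% and 15.6% on Hspa5-204 against 83.9% and 79.0% on Hspa5-202. With coding transcripts alone Hsp90b1 and Hspa5 differed by -0.18 on the log2 scale, which no longer passed the threshold (limma, adjusted p = 0.564). In CPM, without length scaling, the difference was -0.21 (limma, adjusted p = 0.451).

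**Figure D2:**
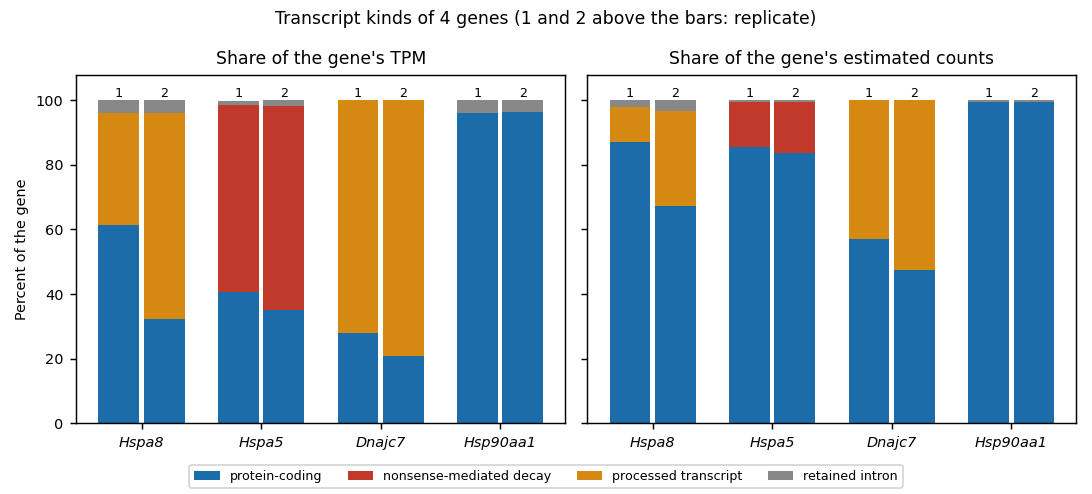
Percent of each gene's TPM (left) and of its estimated counts (right) by annotated kind of transcript in Hspa8, Hspa5, Dnajc7 and Hsp90aa1, with replicate 1 and replicate 2 side by side. Coding transcripts make up 40.5% and 35.1% of the TPM of Hspa5 but 85.5% and 83.8% of its counts, and Hsp90aa1 is almost wholly coding on both scales.

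The DnaJ genes of the endoplasmic reticulum lay well below Hspa5 and Hsp90b1. Dnajc10 (ERdj5), a reductase that breaks wrong disulfide bonds, had 48.4 TPM in each library. Dnajb11 (ERdj3), a secreted partner of BiP, had 49.0 and 34.5 TPM and was 3.31-fold above Dnajb9 (ERdj4), a target of the unfolded protein response, at 14.1 and 11.1 TPM (limma, adjusted p = 0.000675). Dnajc3 (p58IPK), the third gene with the stress element, had 19.0 and 15.4 TPM and lay 2.82-fold below Dnajc10 (limma, adjusted p = 0.000644). Dnajb12, a membrane protein of quality control, had 28.3 and 30.2 TPM and was 4.51-fold above its paralogue Dnajb14, at 5.79 and 7.20 TPM (limma, adjusted p = 0.000144). In CPM, without length scaling, the difference was 0.00 (limma, adjusted p = 0.997). Dnajc1 (ERdj1), which sits by ribosomes at the membrane, had 16.4 and 14.9 TPM. Dnajc14 had 16.2 and 13.7 TPM, Dnajc18 11.0 and 10.4 TPM and Dnajc16 9.89 and 10.1 TPM. Hspa13, a short HSP70-like protein, had 15.1 and 14.2 TPM and lay 47.7-fold below Hspa5 (limma, adjusted p = 5.07e-06), a log2 difference of 5.48 that was 4.14 with coding transcripts alone (limma, adjusted p = 1.45e-06).

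In mitochondria Hspe1 had the highest TPM, followed by Hspd1 and Hspa9. Hspe1 (HSP10, the lid of the chamber) had 240 and 139 TPM, Hspd1 (HSP60, its wall) 134 and 80.8 TPM, and Hspa9 (mortalin, the matrix HSP70 that also pulls proteins in) 99.6 and 69.8 TPM. Hspe1 was above Hspd1 by 0.81 on the log2 scale (95% interval 0.04 to 1.58, limma, adjusted p = 0.0456). Hspd1 and Hspa9 did not differ past the threshold, at 0.31 (95% interval -0.37 to 1.00, limma, adjusted p = 0.296), and Hspe1 over Hspa9 was not tested. Hspa9 was 25.1-fold below Hspa8, at -4.65 on the log2 scale (limma, adjusted p = 1.51e-05) and at -3.58 with coding transcripts alone (limma, adjusted p = 1.36e-05). In CPM Hspe1, with the shorter transcript, was below Hspd1, at 93.9 and 52.7 against 192 and 115 (limma, adjusted p = 0.00290).

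The mitochondrial DnaJ proteins serve import and membrane shape as well as folding. Dnajc19 (TIM14), part of the import motor, had 75.0 and 55.1 TPM, and its relative Dnajc15 had 49.8 and 30.2 TPM, a log2 difference of 0.71 (95% interval 0.07 to 1.36, limma, adjusted p = 0.0414). With the posterior mean TPM of the tables this call was lost (limma, adjusted p = 0.0511), as was that of Hspe1 over Hspd1 (limma, adjusted p = 0.0580). The sole transcript listed for Dnajc15 was annotated as a target of nonsense-mediated decay. Dnajc11, of the complex that shapes the cristae, had 47.3 and 59.6 TPM, of which 30.6 and 28.7 TPM were coding. Dnajc30 had 24.2 and 25.6 TPM, Dnaja3 (TID1), the matrix DnaJ partner of mortalin, 25.1 and 22.1 TPM, and Dnajc28 averaged 1.20 TPM. Dnaja3 lay 2.51-fold below Dnaja1 of the cytosol (limma, adjusted p = 0.00888), a call lost with coding transcripts alone, at -0.67 (limma, adjusted p = 0.0793).

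On vesicles and endosomes 2 of 3 members were detected. Dnajc5 (CSPα), which keeps SNARE proteins folded on secretory vesicles, had 59.9 and 74.7 TPM. Dnajc13 (RME-8), of endosomes, had 55.0 and 52.8 TPM and was 79.3-fold above Dnajc6 (auxilin), the clathrin-uncoating form of neurons, at 0.670 and 0.690 TPM (log2 difference 5.03, limma, adjusted p = 5.02e-06). Coding transcripts made up 47.9% and 46.7% of the TPM of Dnajc13, and from these alone the difference was 3.98 (limma, adjusted p = 9.49e-07). Hspb11, an intraflagellar transport protein (IFT25) despite its name, had 26.2 and 20.8 TPM. Of the members given no compartment, Dnajc4 had 22.7 and 25.9 TPM, Dnajc27 10.3 and 11.1 TPM, Dnajc25 averaged 8.57 TPM and Dnajc22 averaged 1.04 TPM.

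**Figure D3:**
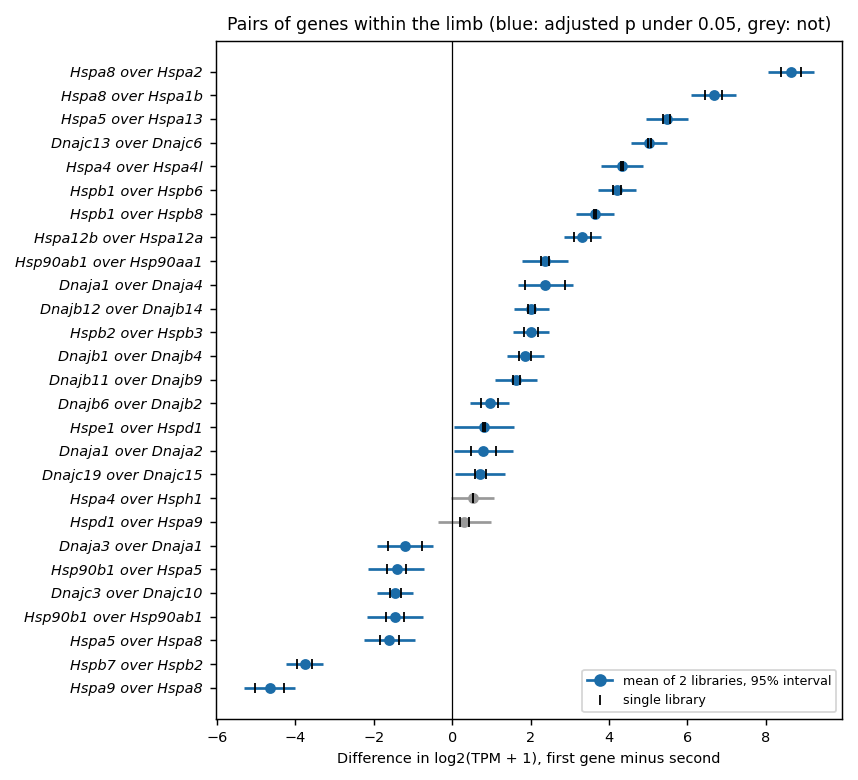
Difference in log2(TPM + 1) between the first and the second gene of 27 pairs, with points for the mean of 2 libraries, bars for the 95% interval from limma and ticks for single libraries. Grey marks the pairs Hspa4 over Hsph1 and Hspd1 over Hspa9, whose intervals include 0.

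Of the 27 pairs set against each other, 25 passed an adjusted p of 0.05 (limma over 15056 genes, Benjamini-Hochberg adjustment), and the sign of every difference was the same in replicates 1 and 2. The pairs were chosen with earlier results of these data known, so the number that passed is a description and not independent support. The test rests on 2 libraries and on variances shared across genes, with 5.36 degrees of freedom, and it treats the genes of a pair as varying independently. In the paired fit, which takes the differences within each library, 26 of 27 passed. Without the filter on low values only 15 pairs passed. The 10 calls then lost were Hspa5 over Hspa8, Hspe1 over Hspd1, Hsp90b1 over Hsp90ab1 and over Hspa5, Dnaja1 over Dnaja2 and over Dnaja4, Dnaja3 over Dnaja1, Dnajb6 over Dnajb2, Dnajb11 over Dnajb9 and Dnajc19 over Dnajc15 (limma, adjusted p between 0.0510 and 0.238).

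Splice forms were checked in the 50 members averaging at least 10 TPM. The leading transcript held under 70% of the gene in both libraries in 14 of the 50 (28.0%), against 37.0% of all protein-coding genes at that level, and in 9 of the members by counts in place of TPM. Coding transcripts held under 70% of the TPM in both libraries in 9 of the 50, against 18.3% of all protein-coding genes at that level, a near-equal share. Besides Hspa8, Hspa5 and Dnajc7, whose leading transcript Dnajc7-203 has no coding frame and held 31.8% and 35.1%, a coding transcript had the highest mean share in the genes below. In Dnajb6 the short form Dnajb6-203 held 68.4% and 66.1% and the long form Dnajb6-201 21.9% and 23.7%, nearly the same in both libraries. In Dnajc5 the coding Dnajc5-201 held 37.4% and 28.2%, beside 32.2% and 32.3% on Dnajc5-204, a target of nonsense-mediated decay. In Dnajc13 the 56-exon Dnajc13-201 held 31.8% and 28.4% of the TPM but 91.8% and 90.3% of the counts. Dnaja1-201 held 53.5% and 60.0% of Dnaja1, and Dnajc11-201 64.8% and 48.1% of Dnajc11. Coding forms shared the gene in Dnajb2, where Dnajb2-210 held 43.9% and 47.5%, in Dnajb12, where Dnajb12-203 held 42.4% and 43.9%, and in Hspb11, where Hspb11-201 held 57.3% and 50.7%.

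Between the libraries, members more often stood lower in replicate 2. Of the 63 members averaging at least 1 TPM, 45 were lower in replicate 2 and 18 higher, whereas 46.2% of all protein-coding genes at that level were lower. The median log2 ratio of replicate 2 to replicate 1 was -0.19 for the members and 0.03 for all protein-coding genes. More than 1.5-fold apart were 10 of 63 members (15.9%), against 9.24% of all protein-coding genes. Of these, 9 were lower in replicate 2 (14.3%, against 6.18%) and 1 was higher (1.59%, against 3.05%). With 1 library on each side no test was possible, and these counts describe the libraries only.

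The 9 that were lower came from the cytosol, the endoplasmic reticulum and the mitochondria. Dnajc21, Dnajc2 and Dnaja1 were 2.12-fold, 2.09-fold and 2.07-fold lower in replicate 2, and Dnajc17 1.86-fold. In mitochondria both subunits of the chaperonin were lower, Hspe1 by 1.72-fold and Hspd1 by 1.65-fold, beside Dnajc15 by 1.65-fold. In the endoplasmic reticulum Hsp90b1 was 1.68-fold lower, and Hspa4l of the cytosol 1.53-fold. In CPM 9 were again lower by that much, but Hspa4l at 1.37-fold was not among them and Hsp90aa1 at 1.57-fold was. Dnajc22 was 1.88-fold higher, at 0.720 TPM in replicate 1 and 1.35 TPM in replicate 2.

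**Figure D4:**
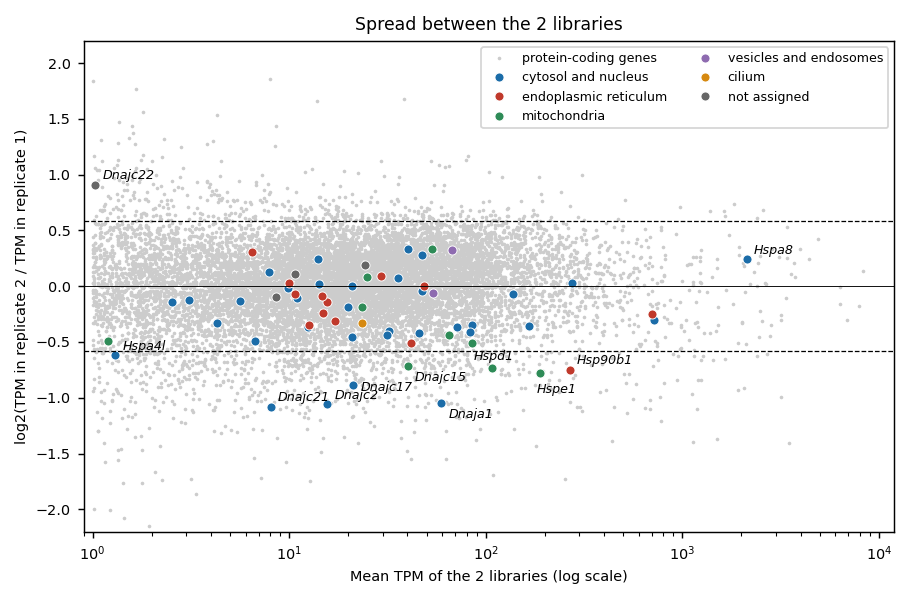
Log2 ratio of TPM in replicate 2 to replicate 1 against the mean TPM of the 2 libraries, for protein-coding genes averaging at least 1 TPM (grey) and members coloured by compartment, with dashed lines at 1.5-fold. Of 63 members, 9 lie below the lower line and Dnajc22 alone lies above the upper one.

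Other parts of the chaperone network showed how the family was set in the tissue. Of 4 heat shock factors, Hsf1, the main factor of the heat response, had 72.6 and 83.7 TPM and Hsf2 12.4 and 12.1 TPM, while Hsf4 and Hsf5 stayed under 1 TPM in both libraries. All 13 exchange and binding factors of HSP70 were detected, led by Bag6 with 220 and 295 TPM, the ubiquitin ligase Stub1 with 198 and 193 TPM, and Bag1 with 90.7 and 60.9 TPM. All 17 HSP90 co-chaperones were detected, led by the immunophilin Fkbp8 with 302 and 353 TPM, the phosphatase Ppp5c with 161 and 193 TPM, and the immunophilin Fkbp4 with 189 and 153 TPM. In neither list was a gene more than 1.5-fold higher in replicate 2. More than 1.5-fold lower there were the HSP70-binding St13 with 65.8 and 33.4 TPM and, among the co-chaperones, Ppid with 97.6 and 63.4 TPM and Sugt1 with 32.6 and 21.7 TPM. In all 14 of the 17 co-chaperones and 8 of the 13 exchange and binding factors were lower in replicate 2. Of all protein-coding genes averaging at least 1 TPM, 46.2% were lower there, and 6.18% by more than 1.5-fold. At least 1 TPM in both libraries was reached by 62.8% of all protein-coding genes.

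Folding machines outside the rule were high as well. Of the 9 subunits of the cytosolic chaperonin TRiC 8 were detected, led by Cct3 with 271 and 232 TPM, Cct5 with 269 and 210 TPM and Tcp1 with 175 and 149 TPM, while the testis form Cct6b had 0.280 and 0.0100 TPM. All 6 subunits of prefoldin, which hands actin and tubulin to TRiC, were lower in replicate 2, and 4 of them by more than 1.5-fold. The shares over all protein-coding genes averaging at least 1 TPM were 46.2% and 6.18%. The highest subunits of prefoldin were Pfdn5 with 275 and 145 TPM, Pfdn6 with 85.1 and 43.8 TPM and Pfdn2 with 68.3 and 33.0 TPM. All 16 folding partners of the endoplasmic reticulum were detected, led by calreticulin (Calr) with 694 and 470 TPM, the cyclophilin Ppib with 637 and 481 TPM and the disulfide isomerase P4hb with 539 and 465 TPM. Among 15 mitochondrial import and processing genes, all detected, Timm23 had 153 and 129 TPM, the protease subunit Clpp 89.0 and 111 TPM and the pore Tomm40 83.0 and 99.4 TPM. Of 11 chaperones with other names 8 were detected: the collagen chaperone Serpinh1 (HSP47) had 1065 and 1277 TPM, the mitochondrial HSP90 Trap1 79.6 and 71.5 TPM and the clathrin-uncoating kinase Gak 42.0 and 46.3 TPM, beside Cryab at the level given above, while Cryaa, Dnajc5b and Dnajc5g stayed under 1 TPM in both libraries.

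The labelled tissue was checked on marker genes. All 7 limb mesenchyme markers were detected, led by Prrx2 with 147 and 219 TPM, Hoxd13 and Prrx1, as were 3 of 3 cartilage markers (Col2a1 1369 and 1622 TPM), 4 of 4 muscle markers (Actc1 1117 and 1147 TPM) and 2 of 2 epidermal markers (Krt5 333 and 237 TPM). Heart, forebrain and testis markers did not reach 1 TPM in both libraries, and of the liver markers Alb had 5.70 and 1.10 TPM and Afp 19.6 and 23.6 TPM. Of 7 immediate early genes that rise when tissue is handled, 6 were detected, and 5 of these were higher in replicate 2, where most members were lower. Among all protein-coding genes averaging at least 1 TPM, 46.2% were lower there. Jun had 54.2 and 74.8 TPM, Ier2 27.7 and 31.2 TPM and Egr1 13.5 and 22.1 TPM. Fosb had 0.450 and 0.590 TPM. The summed level of the 7 genes was 121 TPM in replicate 1 and 162 TPM in replicate 2, and their part in the library differences was not tested.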

How the data were processed

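Polyadenylated RNA of 2 limb libraries was analysed from gene and transcript tables that the authors deposited, made on mm10 with GENCODE M4 according to a deposited text note. The sources used here do not name the program. The expected counts (estimated reads, shared between loci where they fit several), the TPM and each transcript's percent of its gene were used as the authors deposited them, with columns named as in the file headers. Stable identifiers were matched to GENCODE M21, which shares its assembly (GRCm38) with mm10, for symbols, gene types and coordinates. Transcripts without a match there carry no type and were not counted as coding. Of 43346 gene rows, 21474 were protein-coding. Rows of spike-ins, phiX and tRNAs did not enter any sum. Hspa14, which has no row under that symbol, was not analysed here. Compartments were assigned by hand from general knowledge.

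TMM factors (edgeR 4.0.16) were 1.01 and 0.993 and DESeq2 1.42.0 size factors 1.04 and 0.961. Both served only for CPM, as alternatives to TPM. Gene pairs were compared with limma 3.58.1 in R 4.3.3 on log2(TPM + 1): an intercept-only fit with eBayes and trend over the 15056 genes averaging at least 1 TPM or in a pair. The difference was divided by the root of the summed moderated variances, and p was adjusted by Benjamini-Hochberg over 27 pairs. The test was run on simulated data beforehand. Counts off a whole number by over 0.005 marked shared reads, and a whole count does not exclude them. Expected counts were rounded to whole numbers for the TMM and DESeq2 factors. The limit set by a count of 0 was 3 counts, for counting error only. Promoter windows are RefSeq's on GRCm38.p6. Protein sequences were not used.

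The members, the lists and the pairs were chosen with earlier results of these data known. Members averaging at least 10 TPM or in a pair are named with both values, the others with at least their mean, other lists by their 3 highest genes and those under 1 TPM, members over 1.5-fold apart in full, and at most 10 genes for transcripts, plus Dnajb6. Alternatives were other thresholds, scalings, filters and pseudocounts, leaving out each library, and 2 chosen after seeing the data: coding transcripts alone, and a paired limma fit (intercept and eBayes, 1 spread shared by all pairs) on the differences within each library, where the library pairs the genes.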

Additional observations from a re-analysis of the deposited data

How the results depend on the processing

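Pairs past an adjusted p of 0.05 (limma, Benjamini-Hochberg) numbered 25, against 15 with no filter on low values, 26 with a filter at 5 TPM, 22 with posterior mean TPM, 24 in CPM and 26 in a paired fit (a replicate block, as differences within each library), which changed the call of Hspa4 over Hsph1 alone (limma, adjusted p = 0.0215). With coding transcripts 25 pairs could be fitted and 20 passed, and 3 calls were lost. Hspa4 over Hspa4l and Dnajc19 over Dnajc15 were left out because a gene of each had 0 coding TPM in a library. For Hspa4l, transcripts without a match in GENCODE M21 held 62.0% and 100% of the TPM in replicates 1 and 2. These were not counted as coding, so its 0 does not show a lack of coding RNA. In CPM, which are not scaled by length, Hspe1 over Hspd1 was reversed at -1.07 (limma, adjusted p = 0.00290), as was Hspd1 over Hspa9 at -0.04 (limma, adjusted p = 0.913); the cause was not tested. With posterior mean TPM the adjusted p by limma was 0.0580 for Hspe1 over Hspd1, 0.0563 for Dnaja1 over Dnaja2 and 0.0511 for Dnajc19 over Dnajc15, and Hspa4 over Hsph1 passed with a filter at 5 TPM (limma, adjusted p = 0.0480) and in CPM (limma, adjusted p = 0.00473). Of 187 tested alternatives of pairs, 164 kept sign and call. Compartment shares moved by more than their SD in 3 settings. Without members that share reads they were 48.4% for cytosol and nucleus, 31.3% for endoplasmic reticulum, 14.1% for mitochondria, 4.20% for vesicles and endosomes, 0.797% for the cilium and 1.24% unassigned. In expected counts they were 21.8% for endoplasmic reticulum, 3.82% for vesicles and endosomes, 0.0955% for the cilium and 0.963% unassigned. With coding transcripts they were 12.3% for mitochondria, 1.37% for vesicles and endosomes, 0.556% for the cilium and 1.03% unassigned. Members whose leading transcript held under 70% numbered 9 by counts, against 14 by TPM. Detected members numbered between 57 and 64, and members over 1.5-fold apart between 9 and 11, in all settings run. The pair test was not run on a single library, which leaves no residual degrees of freedom; with either library left out no pair changed sign.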
